A study of Homo sapiens with 8 samples.

Results

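Adding sodium lactate to hypoxic KYSE150 cells that were treated with the lactate dehydrogenase inhibitor sodium oxamate was examined across all expressed genes. KYSE150 is a cell line from human esophageal squamous cell carcinoma. The comparison takes 4 of the 8 libraries of the series, 2 with oxamate and 2 with oxamate and lactate, chosen by the treatment named in the labels. Of 61517 listed genes, 15554 passed the expression filter and were tested. The oxamate libraries came from cells in hypoxia with sodium oxamate. The lactate libraries came from cells in hypoxia with sodium oxamate and a compound labelled NALA, which is read here as sodium lactate from the treatment protocol. The other 4 libraries, 2 from normoxia and 2 from hypoxia without added compounds, entered the fit for the estimate of spread and are given as reference levels. The growth medium of all groups was RPMI-1640 with 10% fetal bovine serum. The same unmodified line was used throughout, and the sources used here state neither doses nor times nor the oxygen level. By its title, the series concerns lactylated HIF-1α and escape from immunity in low oxygen.

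Lactate dehydrogenase interconverts pyruvate and lactate, and oxamate, an analog of pyruvate, competes with it for the enzyme. Lactate crosses the plasma membrane with a proton on monocarboxylate transporters, so lactate in the medium can also enter cells whose own production is inhibited. Under low oxygen the HIF-1α protein escapes degradation, pairs with ARNT and switches on genes of glucose uptake, glycolysis and lactate export. Lactate is also known as a donor of lactyl groups that are attached to lysines of histones and other proteins.

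One of the 4 libraries stood apart. Lactate replicate 1 held 18 genes with at least 10 counts there and at most 1 count in each of the other 7 libraries, against 1 to 5 such genes in every other library. Several of them encode plasma proteins of the liver, with 204 counts of ALB (albumin), 98 of AFP and 54 of APOB, and LYZ and CTSG, known from leukocytes, had 33 and 25. Of a list of 20 liver plasma protein genes written after these values were seen, 16 had 3 or more counts in lactate replicate 1 and 2 or 3 in each other library. Their summed count was 668 there, or 30.6 CPM (counts scaled to the library total), against 1.00 to 2.82 CPM in the other 7 libraries. The part of these transcripts in the results was not tested directly. Comparisons with hypoxia alone and counts of gene classes outside the lists always included lactate replicate 1. The comparison of lactate with oxamate was also run without it. Of 729 called members of the gene lists below and other named genes, 20 lost their call without it, and the text names the list counts it moved most.

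Total counts were 29406061 and 28125223 for the oxamate libraries and 21845676 and 27236915 for the lactate libraries. The chi-square per degree of freedom between replicates was 2.02 for the oxamate pair and 4.56 for the lactate pair, above sampling noise, so no library was counted as a copy. Whether replicates were separate cultures is not in the labels, so p-values reflect only library-to-library spread, possibly of technical origin. Epithelial and squamous markers summed to 11056 and 10979 CPM of the total with oxamate and 8119 and 8203 CPM with oxamate and lactate, carried by KRT8, KRT5 and KRT18. Other markers of that list went the other way, with CLDN4 at 71.9 and 69.2 CPM before and 518 and 523 CPM after, and TP63, ITGA6 and CDH1 also higher. SOX2 had at most 1 count in each of these 4 libraries, and CLDN1 had 9 counts in lactate replicate 1 and 0 in the other 3. Of 14 leukocyte markers, CD8A, MS4A1, CD3D and FCGR3A were among those at 0 in these 4 libraries, and sums were 78.8 and 78.0 CPM before and 92.0 and 95.3 CPM after lactate addition, of which CD68, a lysosomal gene, gave 75.7, 75.3, 86.6 and 90.8 CPM. Of 14 fibroblast and endothelial markers, DCN, FAP, KDR, COL1A2 and COL3A1 were at 0, and the sum was 2.65 to 3.31 CPM. The mitochondrial chromosome gave 2.45% and 2.44% of counts with oxamate and 2.14% and 2.09% with lactate.

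Most tested genes differed in level between the lactate and the oxamate libraries. In edgeR's quasi-likelihood test, 5160 genes (33.2%) were higher and 4927 (31.7%) lower with lactate at an adjusted p under 0.05, together 64.9% of those tested. Large changes were mostly increases, with 2289 genes (14.7%) higher and 699 (4.49%) lower by at least 2-fold (1786 and 1296 with upper quartile normalization), and 711 (4.57%) higher and 114 (0.733%) lower by at least 4-fold. The median log2 fold change of all tested genes was -0.02. The list counts below are to be read against 33.2% higher and 31.7% lower. Calls depended on level: among genes averaging at least 38.2 CPM over the 8 libraries, 40.8% were higher and 47.2% lower. The libraries of the groups did not overlap for 12339 genes (79.3%), so separation of the libraries alone says little about any one gene. Genes called higher held 20.2% of all counts in each oxamate library and 34.7% and 34.9% in the lactate libraries. Without lactate replicate 1, 5051 genes were higher and 4729 lower. The split between higher and lower calls depended on scaling: 51.2% of calls were increases here, but 39.6% with upper quartile normalization, which placed the median of all genes at -0.21. Of the called genes, 122 had under 20 counts over the 4 libraries. Values below are CPM after TMM scaling in each library and fitted log2 fold changes ± standard error, with n = 2 libraries per group. The labels give no order or time of the additions, so "after lactate was added" names the lactate libraries and not a later time in the same cells. Genes outside the naming rule given with the methods were chosen from the lists after their values were seen. In bulk RNA, fewer cells with a transcript and less of it per cell cannot be told apart.

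**Figure D1:**
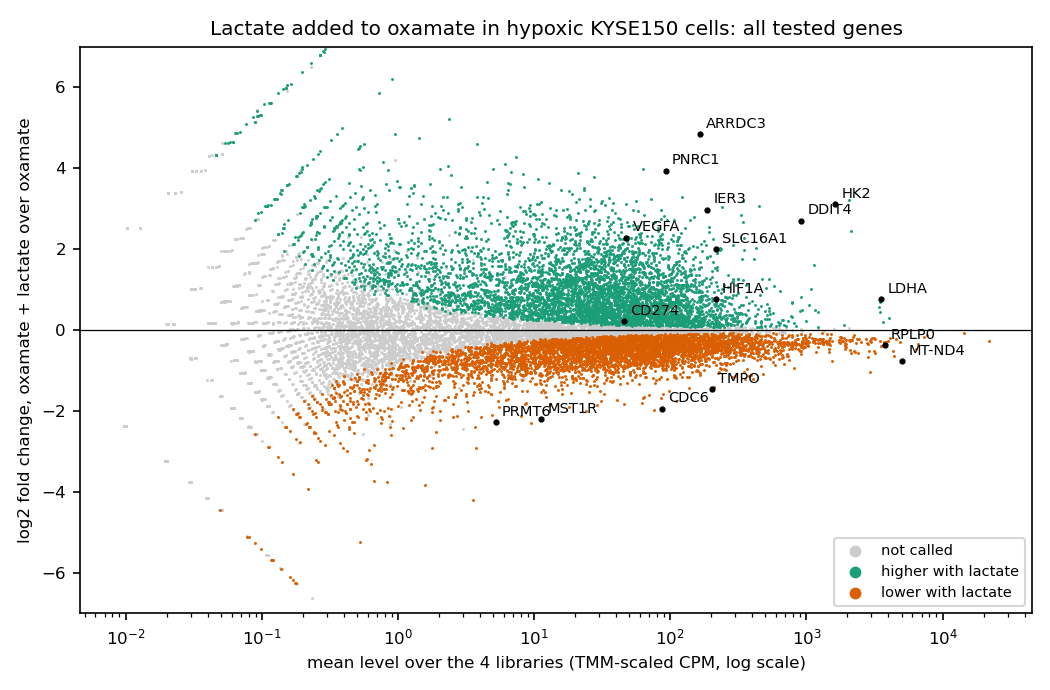
Log2 fold change of oxamate with lactate over oxamate (vertical axis) against the mean level over the 4 libraries in TMM-scaled CPM (log axis) for every tested gene, except 16 genes beyond the plotted range of 7 in either direction. The 5160 genes called higher spread further from 0 than the 4927 called lower, and rows of points at the left are genes with few counts. Black points are genes named in the text.

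Transcripts of lactate handling moved in opposite directions. SLC16A1 encodes the monocarboxylate transporter MCT1, which carries lactate and pyruvate in either direction (GRCh38, chr1:112911847-112957013). It was at 85.4 and 86.8 CPM in the oxamate libraries and 348 and 344 CPM after lactate was added, and at 205 CPM in hypoxia alone. The lactate libraries were about 4.02 times as high as the oxamate libraries and the groups did not overlap (log2 fold change 2.01 ± 0.035, adjusted p = 1.13e-21). SLC16A3 encodes MCT4, a transporter known for lactate export from glycolytic cells (chr17:82228397-82261129). Its level was 18.7 and 20.5 CPM in the oxamate libraries and 97.4 and 103 CPM after lactate was added (log2 fold change 2.36 ± 0.054, adjusted p = 1.20e-19), a rise that left it below its 298 CPM in hypoxia alone. CSNK1D on the opposite strand overlaps 5.36% of the exon bases of SLC16A3, and no source used here states the strand setting of the counts.

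LDHA, encoding the dehydrogenase subunit geared to making lactate (chr11:18394388-18408425), rose from 2624 and 2611 CPM to 4526 and 4347 CPM (log2 fold change 0.76 ± 0.026, adjusted p = 6.37e-17). LDHB, the subunit that favours pyruvate (chr12:21635342-21757857), fell from 2239.9 and 2199.7 CPM to 1728 and 1596 CPM (log2 fold change -0.42 ± 0.031, adjusted p = 8.49e-11). Neither gene's groups overlapped. Both levels with lactate lay between those of oxamate and of hypoxia alone, where LDHA was at 5657 and LDHB at 883 CPM. BSG, the chaperone of MCT1 and MCT4 also called basigin, fell (-0.37 ± 0.032), as did its relative EMB (-0.73 ± 0.054). Of the mitochondrial pyruvate carrier subunits, MPC2 fell (-0.21 ± 0.055), while MPC1 was at 25.5 and 27.4 CPM in the oxamate libraries and 24.4 and 27.9 CPM after lactate was added and did not pass (adjusted p = 0.908). In all, 3 of 10 tested members of this list rose and 4 fell, shares near those of all tested genes (33.2% and 31.7%).

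**Figure D2:**
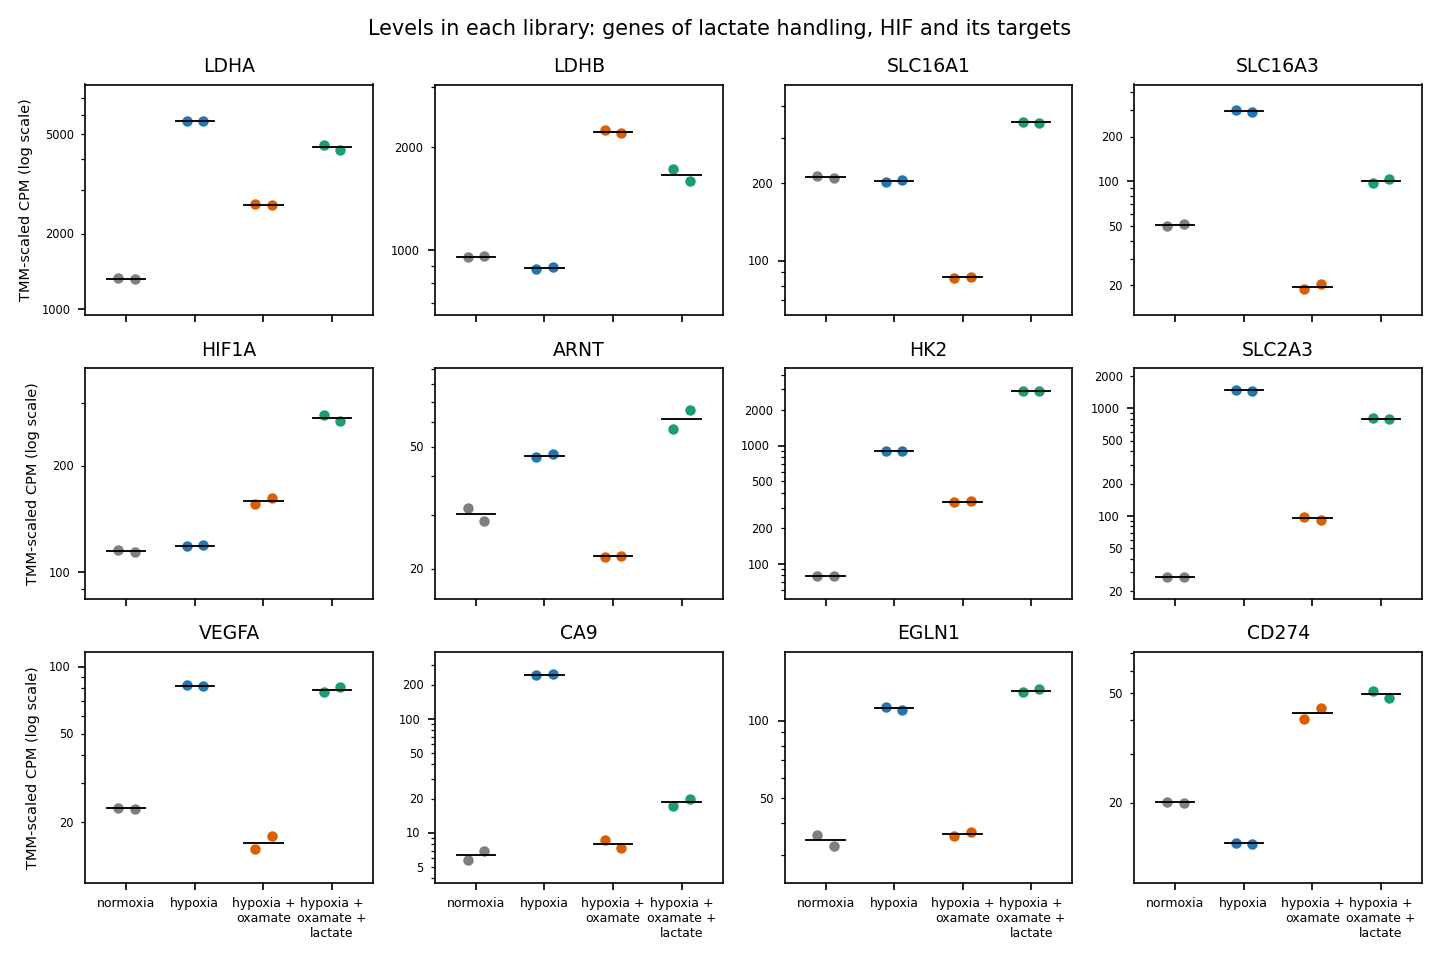
TMM-scaled CPM (log axes, a separate scale for each gene) of 12 genes in each of the 8 libraries, with points for libraries and bars for the mean of each group of 2. The lactate libraries lie above the oxamate libraries for 11 genes and below them for LDHB. The distance is small for CD274. With lactate, LDHB, SLC16A1, HIF1A, ARNT, HK2, EGLN1 and CD274 lie above hypoxia alone.

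All 11 tested HIF subunits and regulators rose with lactate (median log2 fold change 0.97, against -0.02 over all tested genes). HIF1A, which encodes HIF-1α (chr14:61695513-61748259), was at 156 and 162 CPM in the oxamate libraries and 278 and 267 CPM after lactate was added (log2 fold change 0.77 ± 0.036, adjusted p = 1.47e-14). Both lactate libraries were above every library of the other 3 groups, and hypoxia alone was at 119 CPM. ARNT, its dimer partner (chr1:150809705-150876768), rose from 21.8 and 22.0 CPM to 57.3 and 65.7 CPM (log2 fold change 1.49 ± 0.07, adjusted p = 3.02e-14), and EPAS1, encoding HIF-2α, rose by 1.17 ± 0.062. The negative regulators rose as well. EGLN1 encodes the prolyl hydroxylase PHD2, which marks HIF-α for degradation in the presence of oxygen (chr1:231363751-231425044), and it was at 35.7 and 37.0 CPM in the oxamate libraries and 129 and 133 CPM after lactate was added (log2 fold change 1.85 ± 0.05, adjusted p = 1.71e-18). EGLN2, encoding PHD1, rose by 1.84 ± 0.066. VHL, the ubiquitin ligase subunit that recognises hydroxylated HIF-α, went from 10.6 to 20.8 CPM on average. Of the 11, CITED2 (0.12) and ARNTL (0.37) were the least secure. CITED2 passed in 4 of 11 alternative analyses and ARNTL in 3, and ARNTL lost its call without lactate replicate 1, which left 10. With upper quartile normalization 8 of the 11 were higher, and without oxamate replicate 2, 7 were.

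Enzymes linked to protein lactylation did not move as a block, with 9 of 16 tested members higher and 6 lower. EP300, an acetyltransferase and HIF coactivator reported to transfer lactyl groups (chr22:41091786-41180079), rose from 17.2 and 19.9 CPM to 43.8 and 45.1 CPM (log2 fold change 1.26 ± 0.07, adjusted p = 3.74e-13). Its paralog CREBBP rose by 1.11 ± 0.048, and SIRT1, a deacylase, by 1.92 ± 0.058, from 22.0 to 83.4 CPM. AARS1, the alanyl-tRNA synthetase that is also described as a lactyltransferase (chr16:70252295-70289543), went the other way, at 167 and 171 CPM in the oxamate libraries and 116 and 119 CPM after lactate was added (log2 fold change -0.53 ± 0.037, adjusted p = 3.16e-11). Its mitochondrial relative AARS2 (-0.98 ± 0.12) and the acetyltransferase KAT8 (-0.94 ± 0.081) fell too. Increases of HDAC1 (0.18), HDAC2 (0.19) and SIRT2 (0.21) lost their calls with upper quartile normalization, which left 6 members higher.

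Hypoxia-responsive genes outside glycolysis rose in 31 of 37 tested cases and fell in 2 (83.8% higher, against 33.2% of all tested genes), with a median log2 fold change of 1.62. A total of 23 rose at least 2-fold, and 1 fell without oxamate replicate 1 or without lactate replicate 2. DDIT4, an inhibitor of the growth kinase complex mTORC1, was at 248 and 239 CPM in the oxamate libraries and 1576 and 1614 CPM after lactate was added (log2 fold change 2.71 ± 0.034, adjusted p = 1.23e-23). KDM3A, a histone H3K9 demethylase (chr2:86440647-86492716), went from 91.9 and 93.4 CPM to 597 and 591 CPM (log2 fold change 2.68 ± 0.035, adjusted p = 1.16e-23). The lactate libraries were about 6.55 times as high for DDIT4, with no overlap, and 6.41 times for KDM3A. VEGFA, an angiogenic growth factor (chr6:43770184-43786487), rose from 15.1 and 17.3 CPM to 76.9 and 80.8 CPM (log2 fold change 2.29 ± 0.062, adjusted p = 1.71e-18), next to its 82.3 and 81.6 CPM in hypoxia alone. STC2 (3.25 ± 0.058), NDRG1 (3.22 ± 0.058) and ANKRD37 (3.80 ± 0.087) were among the largest increases of the list. The exceptions were PLOD1, a collagen lysyl hydroxylase, which fell (-0.28 ± 0.044), and NDUFA4L2, whose decrease (-0.70 ± 0.29) passed in 5 of 11 alternatives.

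CA9, encoding the cell-surface carbonic anhydrase IX (chr9:35673856-35681159), shows how far the response differed between targets. It was at 8.71 and 7.40 CPM in the oxamate libraries and 17.2 and 19.8 CPM after lactate was added, so the lactate libraries were about 2.31 times as high and did not overlap with oxamate (log2 fold change 1.21 ± 0.099, adjusted p = 7.94e-10). In hypoxia alone CA9 stood at 243 and 248 CPM. HILPDA, a lipid droplet protein gene, showed the same order, with 11.5 CPM with oxamate, 36.5 with lactate and 415 in hypoxia alone. ARHGEF39 on the opposite strand overlaps 38.5% of the CA9 exon bases and averaged 3.69 CPM over the 4 libraries, so the low CA9 values are uncertain.

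Of 20 glucose uptake and glycolysis genes, 16 rose (80%) and 4 fell (20%), with a median of 0.53. HK2, hexokinase 2, which phosphorylates glucose at the entry to glycolysis (chr2:74833981-74893359), had the smallest p of all tested genes. Its level was 336 and 339.96 CPM in the oxamate libraries and 2910.4 and 2917 CPM after lactate was added, an increase of about 8.62-fold (log2 fold change 3.11 ± 0.028, adjusted p = 3.11e-26), to above its 904 and 907 CPM in hypoxia alone. SLC2A3, encoding the glucose transporter GLUT3 (chr12:7919230-7936275), went from 98.2 and 91.8 CPM to 808 and 792 CPM (log2 fold change 3.07 ± 0.035, adjusted p = 8.66e-25). SLC2A1, encoding GLUT1 (chr1:42925375-42959176), was at 560.1 and 552 CPM in the oxamate libraries and 1643 and 1756 CPM after lactate was added (log2 fold change 1.61 ± 0.032, adjusted p = 9.27e-21), also above hypoxia alone (680.04 CPM). PFKFB3 (1.27 ± 0.033) and PFKFB4 (2.34 ± 0.082), which make the activator of phosphofructokinase, rose as well. Later steps varied. The enolase ENO2 rose by 2.39 ± 0.047 and GPI (0.63), ALDOA (0.56) and PGK1 (0.50) rose less, whereas the more widely expressed enolase ENO1 (-0.33 ± 0.025) and the isomerase TPI1 (-0.28 ± 0.026) fell. PKM, PFKL, HK1, PGAM1 and PFKP rose by 0.11 (PFKP) to 0.25 (PFKL) and lost their calls with upper quartile normalization, which left 11 members higher. GAPDH changed by -0.06 ± 0.026, and that call was lost without lactate replicate 1.

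The promoters of the called members with the smallest p whose window holds the core of the hypoxia response element are shown for these 2 lists. The element core is ACGTG, searched on both strands in the window of 250 bases before to 50 after each RefSeq gene start (RefSeq, GRCh38.p14). Capitals mark the match, which reads CACGT where it lies on the opposite strand.
DDIT4 (chr10:72273674-72273973, + strand): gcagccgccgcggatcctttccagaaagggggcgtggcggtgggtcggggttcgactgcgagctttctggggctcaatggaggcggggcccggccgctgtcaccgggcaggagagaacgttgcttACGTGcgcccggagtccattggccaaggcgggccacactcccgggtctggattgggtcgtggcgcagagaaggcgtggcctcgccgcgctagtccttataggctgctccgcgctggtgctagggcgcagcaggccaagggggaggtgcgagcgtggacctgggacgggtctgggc
HK2 (chr2:74833877-74834176, + strand): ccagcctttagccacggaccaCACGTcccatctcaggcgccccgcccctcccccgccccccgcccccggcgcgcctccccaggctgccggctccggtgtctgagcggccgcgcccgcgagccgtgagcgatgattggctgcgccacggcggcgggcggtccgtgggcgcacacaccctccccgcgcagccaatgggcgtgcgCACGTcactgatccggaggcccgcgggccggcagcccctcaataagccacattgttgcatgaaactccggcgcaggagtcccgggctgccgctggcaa
The DDIT4 window holds 1 match, which starts 125 bases before the gene start, and the HK2 window holds 2, which start 229 and 48 bases before it. Of the hypoxia list, 19 of 32 genes with a promoter entry hold the core (59.4%), and of the glycolysis list 7 of 19 (36.8%), against 21.6% of 27305 promoters. These are letters in a window, not measured binding sites.

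Against hypoxia alone, the targets did not all stand at the same place with oxamate and lactate. This comparison uses the same lactate libraries and the same fit, in which 38.5% of all tested genes were higher and 40.2% lower than in hypoxia alone. Of the 37 hypoxia-responsive genes, 8 were higher with oxamate and lactate than with hypoxia alone and 24 were lower, with a median of -0.90. KDM3A was at 215 CPM in hypoxia alone and 594 CPM with oxamate and lactate, and the corresponding means of KLHL24 were 31.7 and 102 CPM. NDRG1, a gene long used as a marker of low oxygen, averaged 7356 CPM in hypoxia alone, 397 with oxamate and 3706 with lactate. Of the 11 HIF subunits and regulators, 6 were higher and 5 lower than in hypoxia alone.

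**Figure D3:**
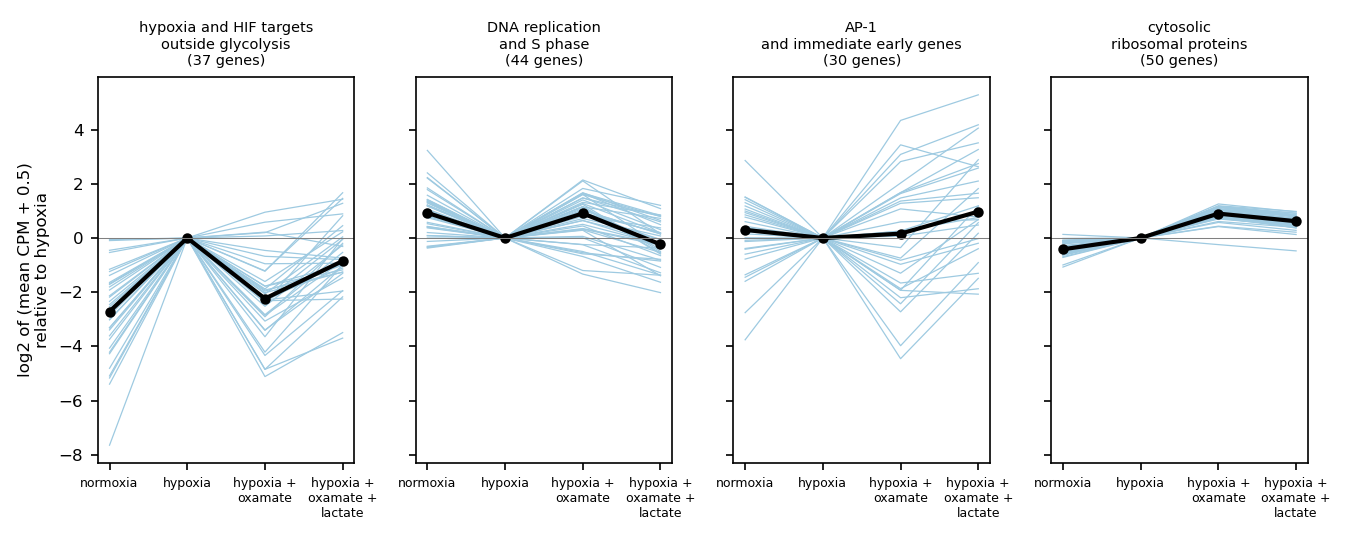
Levels of the tested members of 4 gene lists in the 4 groups, as log2 of group mean CPM plus 0.5 relative to hypoxia alone (blue lines are genes, the black line with points is the median). From oxamate to oxamate with lactate, most hypoxia targets and immediate early genes rise, most S phase genes fall and ribosomal protein genes fall slightly. The 4 groups have 2 libraries each and share hypoxia as the reference.

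The gene with the largest increase among those open to the naming rule was ARRDC3, a gene of an arrestin-domain protein (chr5:91368724-91383359). It was at 11.1 and 11.1 CPM in the oxamate libraries and 327 and 311 CPM after lactate was added, about 28.7 times as high (log2 fold change 4.84 ± 0.053, adjusted p = 8.66e-25), against 90.6 and 93.4 CPM in hypoxia alone. Its relative ARRDC4 rose by 2.60 ± 0.065. PNRC1, a nuclear receptor coregulator gene (chr6:89080751-89085160), went from 10.8 and 11.8 CPM to 171 and 177 CPM (log2 fold change 3.94 ± 0.06, adjusted p = 1.67e-22). HBP1, a transcriptional repressor of cell cycle genes (chr7:107168961-107202529), was at 7.05 and 8.05 CPM in the oxamate libraries and 118 and 120.4 CPM after lactate was added (log2 fold change 3.98 ± 0.074, adjusted p = 6.73e-21). The groups were far apart for all 3, and the naming rule admitted only genes without overlap. CPEB2, a regulator of translation, rose by 3.88 ± 0.13, and SERTAD3, an E2F cofactor gene, by 3.87 ± 0.15. DEPP1, a FOXO target, went from 0.856 to 12.7 CPM and MIR23AHG, the host of a microRNA cluster, rose by 4.28 ± 0.17. APOLD1 rose by 4.11 ± 0.21 but shares 25.4% of its exon bases with the far more abundant DDX47, and HBP1 shares 15.4% with COG5, so part of their counts is uncertain. GPRC5A, an orphan receptor of epithelial cells (chr12:12890782-12917937), had one of the smallest p-values, at 651 and 656 CPM in the oxamate libraries and 3538 and 3628 CPM after lactate was added (log2 fold change 2.45 ± 0.027, adjusted p = 8.66e-25) and 3535 and 3521 CPM in hypoxia alone.

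Immediate early and AP-1 related genes rose in 23 of 30 tested cases and fell in 1 (median 0.95), and without lactate replicate 1 in 26. Without lactate replicate 2, 2 members fell. IER3, a stress-induced survival gene (chr6:30743199-30744554), was at 40.9 and 42.8 CPM in the oxamate libraries and 315 and 345 CPM after lactate was added (log2 fold change 2.98 ± 0.044, adjusted p = 1.67e-22). DUSP10, a phosphatase of the kinases p38 and JNK (chr1:221701424-221742176), was at 169 and 165 CPM in the oxamate libraries and 688 and 678 CPM after lactate was added (log2 fold change 2.03 ± 0.034, adjusted p = 1.09e-21). The groups did not overlap for either gene. The phosphatases DUSP1 (3.44 ± 0.11) and DUSP5 (2.65 ± 0.086) and the receptor kinase antagonist SPRY2 (3.64 ± 0.18) rose with them. Among AP-1 subunits, JUNB (3.13 ± 0.074) and FOSL2 (1.98 ± 0.038) rose and JUN fell (-0.81 ± 0.043). FOS, at 0.774 and 0.485 CPM in the oxamate libraries and 0.661 and 1.18 CPM after lactate was added, did not pass (adjusted p = 0.181), nor did EGR1 (-0.16, adjusted p = 0.528). The AP-1 element TGANTCA stood in 1 of 27 promoters of this list (3.70%), against 7.76% of all promoters.

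In the MYC network, 11 of 17 tested members rose and 4 fell (64.7% and 23.5%, against 33.2% and 31.7% of all tested genes). MYC rose by 1.60 ± 0.051, from 39.1 to 119 CPM, and so did its antagonists MXI1 (2.44 ± 0.057), MXD1 (1.60 ± 0.049) and MNT (1.68 ± 0.077), while their shared partner MAX did not pass (-0.04 ± 0.058). Of 25 p53 targets, 15 rose (60%) and 7 fell (28%), the latter share being near that of all genes. The death-promoting BBC3 (PUMA) went from 1.48 to 19.8 CPM (3.73 ± 0.15), GDF15 rose by 2.84 ± 0.097, MDM2, the ligase that degrades p53, by 1.77 ± 0.051 and the cell cycle inhibitor CDKN1A by 1.33 ± 0.11. BAX (-0.78 ± 0.048) and DDB2 (-0.57 ± 0.048) of the same list fell. Of 22 NF-kB response genes, 12 rose and 3 fell (54.5% and 13.6%, and 10 and 5 members with upper quartile normalization), including the inhibitor NFKBIA (1.90 ± 0.066) and the cytokine gene LIF (1.99 ± 0.1), both higher.

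Genes of DNA replication fell almost without exception, 43 of 44 tested members (97.7%, against 31.7% of all tested genes), 17 of them at least 2-fold, with a median of -0.89. CDC6, which loads the replicative helicase at origins (chr17:40287633-40304657), was at 137 and 139 CPM in the oxamate libraries and 37.1 and 34.9 CPM after lactate was added (log2 fold change -1.94 ± 0.047, adjusted p = 2.53e-19). MCM10, a replication initiation factor (chr10:13161554-13211104), went from 122 and 121 CPM to 31.6 and 30.1 CPM (log2 fold change -1.97 ± 0.051, adjusted p = 8.58e-19). The naming rule by smallest p admitted only genes without overlap. In hypoxia alone CDC6 was at 44.9 and MCM10 at 27.7 CPM. All of MCM2 to MCM7, the subunits of the helicase, fell, from MCM6 (-1.76 ± 0.05) to MCM7 (-0.68 ± 0.03), as did the sliding clamp PCNA (-1.69 ± 0.048) and the nucleotide enzyme RRM2 (-1.13 ± 0.032). CCNE2, at 1.82 and 2.27 CPM in the oxamate libraries and 2.08 and 1.43 CPM after lactate was added, did not pass. Without lactate replicate 1, POLD1 lost its call and 42 members were lower.

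Genes of G2 and mitosis fell in 28 of 34 cases (82.4%) and rose in 5 (14.7%), with a median of -0.47. AURKB, the kinase of the chromosomal passenger complex (chr17:8204733-8210600), was at 112 and 109 CPM in the oxamate libraries and 43.1 and 46.0 CPM after lactate was added (log2 fold change -1.31 ± 0.047, adjusted p = 1.66e-16), and NUSAP1, a spindle protein gene (chr15:41332694-41381050), at 218 and 225 CPM in the oxamate libraries and 108 and 107 CPM after lactate was added (log2 fold change -1.05 ± 0.038, adjusted p = 1.91e-16). The lactate libraries were lower than every library of the other 3 groups for both. MKI67, the proliferation marker (-0.47 ± 0.036), and FOXM1, which drives mitotic genes (-0.64 ± 0.032), fell. The spindle checkpoint kinase TTK rose (1.17 ± 0.054). Of the other increases, ANLN (0.20), KIF23 (0.17) and CENPF (0.10) lost their calls with upper quartile normalization, which left 2 members higher, as did leaving out oxamate replicate 1 (3 without oxamate replicate 2), while AURKA (0.37 ± 0.054) kept its call in all 11 alternatives. Outside the lists, the nuclear lamina gene TMPO (chr12:98515512-98550379) was among the smallest p-values, at 296 and 295 CPM in the oxamate libraries and 108 and 109 CPM after lactate was added (log2 fold change -1.45 ± 0.034, adjusted p = 1.67e-19).

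Every one of the 50 tested cytosolic ribosomal protein genes fell, with log2 fold changes from -0.46 to -0.19 (median -0.29). RPLP0, a stalk protein of the large subunit (chr12:120196686-120201235), was at 4213 and 4253 CPM in the oxamate libraries and 3272 and 3317 CPM after lactate was added (log2 fold change -0.36 ± 0.025, adjusted p = 1.62e-11), and RPL27 (chr17:42998273-43002959) at 1363 and 1404 CPM in the oxamate libraries and 1033 and 1032 CPM after lactate was added (log2 fold change -0.42 ± 0.03, adjusted p = 2.28e-11). The groups did not overlap for either. Both stayed above hypoxia alone, at 2527 and 666 CPM, and 49 of the 50 were higher than in hypoxia alone. Many ribosomal protein genes have processed copies in the genome, so their counts carry that uncertainty.

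Aminoacyl-tRNA synthetases, which charge tRNAs with amino acids, fell in 17 of 20 cases (85%) and rose in 1 (5%), with a median of -0.33. WARS1 (chr14:100333788-100376805), for tryptophan, was at 186 and 179 CPM in the oxamate libraries and 103 and 102 CPM after lactate was added (log2 fold change -0.83 ± 0.038, adjusted p = 1.29e-14). IARS1 (chr9:92210207-92293756), for isoleucine, was at 343 and 341 CPM in the oxamate libraries and 217 and 212 CPM after lactate was added (log2 fold change -0.67 ± 0.033, adjusted p = 4.50e-14). FARSB fell (-0.82 ± 0.041), whereas FARSA, the other subunit of the same phenylalanine enzyme, rose by 0.29 ± 0.036. The response element shared by CCAAT enhancer binding and ATF factors was searched as TGATGNAA on both strands. It stands in 6 of 16 promoters of this list (37.5%) and in 3.67% of all promoters. The IARS1 window is printed as the called member with the smallest p that holds it, with the match in capitals on the opposite strand, starting 13 bases before the gene start.
IARS1 (RefSeq, GRCh38.p14, chr9:92293648-92293947, - strand): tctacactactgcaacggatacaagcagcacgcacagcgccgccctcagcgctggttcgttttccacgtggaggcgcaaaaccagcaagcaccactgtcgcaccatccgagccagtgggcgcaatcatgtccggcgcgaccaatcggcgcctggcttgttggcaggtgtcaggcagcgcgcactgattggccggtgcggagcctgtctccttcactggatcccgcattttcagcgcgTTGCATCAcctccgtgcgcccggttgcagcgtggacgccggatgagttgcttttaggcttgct

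Stress pathway genes split within their lists. Of 27 tested genes of the ATF4 and amino acid stress response, 14 rose (51.9%) and 9 fell (33.3%, near the 31.7% of all tested genes). DDIT3, the stress factor CHOP, was at 3.76 and 4.41 CPM in the oxamate libraries and 38.7 and 38.9 CPM after lactate was added (log2 fold change 3.25 ± 0.10, adjusted p = 1.94e-17), and the kinase inhibitor TRIB3 (1.45 ± 0.10) and the cystine transporter subunit SLC7A11 (2.43 ± 0.15) rose too. ATF4 rose by 0.46 ± 0.03. The serine synthesis genes went the other way, with PSAT1 from 96.6 to 27.9 CPM (-1.79 ± 0.05) and PSPH (-1.21 ± 0.072), PHGDH (-0.46 ± 0.055) and the asparagine synthetase gene ASNS (-0.87 ± 0.052) lower. In the endoplasmic reticulum list, 8 of 24 members rose (33.3%, near the 33.2% of all tested genes) and 15 fell (62.5%). The increases included the degradation factors HERPUD1 (2.20 ± 0.045) and SYVN1 (1.15 ± 0.052), the cochaperone DNAJB9 (2.03 ± 0.068) and the transcription factor XBP1 (1.40 ± 0.058). The folding enzymes and chaperones PDIA3 (-0.59 ± 0.029), HSP90B1 (-0.55 ± 0.031) and CALR (-0.50 ± 0.029) fell, and the chaperone HSPA5 (BiP) was at 789 and 775 CPM in the oxamate libraries and 804 and 777 CPM after lactate was added and did not pass (adjusted p = 0.657).

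Genes of the respiratory chain were mostly lower, from both the nuclear and the mitochondrial genome. Of 58 tested nuclear genes of the respiratory chain, 45 fell (77.6%) and 7 rose (12.1%), with a median of -0.26. Over all tested genes 31.7% fell and 33.2% rose, and among those averaging at least 38.2 CPM 47.2% fell and 40.8% rose. With upper quartile normalization 51 of the 58 fell and 1 rose. Leaving out either oxamate library also left 1 higher. ATP5F1A, the catalytic-head alpha subunit of ATP synthase (chr18:46080248-46104334), was at 469 and 466 CPM in the oxamate libraries and 305 and 304 CPM after lactate was added (log2 fold change -0.62 ± 0.029, adjusted p = 2.70e-14), and NDUFA9 of complex I at 169 and 166 CPM in the oxamate libraries and 111 and 111 CPM after lactate was added (log2 fold change -0.60 ± 0.038, adjusted p = 4.07e-12). The mitochondrial chromosome carries 13 protein genes, of which 10 fell and 2 rose, or 11 and 1 with upper quartile normalization, and 1 rose without oxamate replicate 1 (median -0.45). MT-ND4 was at 6327 and 6319 CPM in the oxamate libraries and 3689 and 3772 CPM after lactate was added (log2 fold change -0.76 ± 0.028, adjusted p = 2.69e-16), and MT-CO3 at 401 and 396 CPM in the oxamate libraries and 269 and 260.4 CPM after lactate was added (log2 fold change -0.59 ± 0.029, adjusted p = 3.51e-14). MT-CO3 was at 4643 CPM in normoxia and 935 CPM in hypoxia alone. All 13 were lower with oxamate and lactate than in hypoxia alone. Over the libraries of the comparison, mitochondrial ribosomal RNA gave 0.964% and 0.966% of counts with oxamate and 1.06% and 1.00% with lactate. In the list of pyruvate entry and the TCA cycle, 21 of 29 members fell (72.4%) and 3 rose (10.3%). The pyruvate dehydrogenase subunit PDHA1 (-0.77 ± 0.039) was among those that fell.

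Genes of the lists of hypertonic stress, of iron and ferroptosis and of zinc rose more often than they fell. In the hypertonic stress list, 7 of 10 tested members rose and 2 fell. The amino acid transporter SLC38A2 was at 56.4 and 56.8 CPM in the oxamate libraries and 333 and 328 CPM after lactate was added (log2 fold change 2.55 ± 0.038, adjusted p = 1.67e-22), NFAT5, the transcription factor of the response to high salt, rose by 1.78 ± 0.059 and the inositol transporter SLC5A3 by 1.67 ± 0.078, whereas the salt-responsive kinase SGK1 fell (-0.63 ± 0.047). The call of AQP3, at 0.542 and 0.485 CPM in the oxamate libraries and 3.25 and 0.734 CPM after lactate was added, rested on lactate replicate 1. Its log2 fold change of 1.91 became 0.51 without it and did not pass, which left 6 higher. Of 15 genes of iron uptake, storage and ferroptosis, 9 rose (60%) and 3 fell (20%), or 9 and 5 with upper quartile normalization. They included the transferrin receptor TFRC (1.27 ± 0.035) and the heme oxygenase HMOX1 (1.57 ± 0.14), both higher, and the peroxidase GPX4 (-0.46 ± 0.041), lower. Of 8 tested metallothionein and zinc genes, 5 rose and 1 fell (4 and 3 with upper quartile normalization). The zinc exporter SLC30A1 (1.51 ± 0.042) and the metal sensor MTF1 (1.59 ± 0.055) were highest, and the member that fell was at -1.54. The metallothionein MT2A did not pass (0.05, adjusted p = 0.305). Of 30 autophagy and lysosome genes, 18 were higher (60%) and 10 lower (33.3%, near the 31.7% of all tested genes). FLCN (2.14 ± 0.06) and the initiating kinase ULK1 (2.07 ± 0.068) were higher and the protease CTSA (-0.66 ± 0.039) lower.

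CD274, encoding the checkpoint ligand PD-L1 (chr9:5450503-5470566), was at 40.3 and 44.1 CPM in the oxamate libraries and 50.9 and 47.9 CPM after lactate was added, with 14.4 and 14.3 CPM in hypoxia alone. The lactate libraries were higher without overlap, by a log2 fold change of 0.23 ± 0.061 (adjusted p = 0.00252), about 1.17-fold. This call was not secure. It was lost with upper quartile normalization (0.04), the stricter count filter (0.11), DESeq2 (0.17) and without oxamate replicate 1 (0.06). In the list of checkpoint and suppressive surface molecules, 8 of 16 tested members fell (50%) and 5 rose (31.2%, near the 33.2% of all genes), and 7 rose without lactate replicate 2. PVR (-0.74 ± 0.04), a ligand of the receptor TIGIT, and CD47 (-0.62 ± 0.061), which restrains phagocytosis, were lower, and TNFSF9 (2.28 ± 0.091), the ligand of the T cell costimulator 4-1BB, was higher. Genes of MHC class I and peptide loading fell in 13 of 19 cases and rose in 2, with TAP2 (-0.66 ± 0.049), TAPBP (-0.54 ± 0.084) and B2M (-0.20 ± 0.034) lower, and 11 fell without lactate replicate 1. No member rose without oxamate replicate 1, and 1 rose without oxamate replicate 2. HLA-C (-0.01, adjusted p = 0.789) and HLA-B (0.12, adjusted p = 0.413) did not pass. HLA genes are highly similar copies, and reads could be split between them.

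Among the largest decreases open to the naming rule, PRMT6, an arginine methyltransferase of histone H3 (chr1:107056679-107067636), was at 8.52 and 8.74 CPM in the oxamate libraries and 1.73 and 1.83 CPM after lactate was added (log2 fold change -2.27 ± 0.14, adjusted p = 2.62e-12), against 62.5 CPM in normoxia. MST1R, the receptor kinase RON (chr3:49887002-49903873), was at 17.8 and 19.1 CPM in the oxamate libraries and 4.83 and 3.34 CPM after lactate was added (log2 fold change -2.20 ± 0.12, adjusted p = 8.69e-13), and the homeobox gene HOXA7 (chr7:27153716-27157936) went from a mean of 6.60 to 1.51 CPM (log2 fold change -2.14 ± 0.20, adjusted p = 2.31e-09). The lactate libraries were the lower ones in each case, and the naming rule admitted only genes without overlap. H3C10, a replication-dependent histone H3 gene, fell (-2.39 ± 0.22), but such transcripts lack poly(A) tails for the most part and per the labels mRNA was captured by its poly(A) tail. The decreases of CHTF8 (from 38.6 to 9.34 CPM, adjusted p = 0.00218), AMIGO3 (-2.11 ± 0.29), SYS1-DBNDD2 (-2.15 ± 0.33) and ALDH1A3-AS1 (-2.09 ± 0.19) are uncertain because each shares exon bases with a more abundant gene. By smallest p, MAGEA4, a cancer-testis antigen gene (chrX:151912509-151925170), was at 579.98 and 554 CPM in the oxamate libraries and 249 and 244 CPM after lactate was added (log2 fold change -1.20 ± 0.032, adjusted p = 1.37e-18), and VMP1, which acts in autophagosome formation (chr17:59707192-59842255), at 307 and 297 CPM in the oxamate libraries and 116 and 114 CPM after lactate was added (log2 fold change -1.39 ± 0.037, adjusted p = 1.33e-18).

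**Figure D4:**
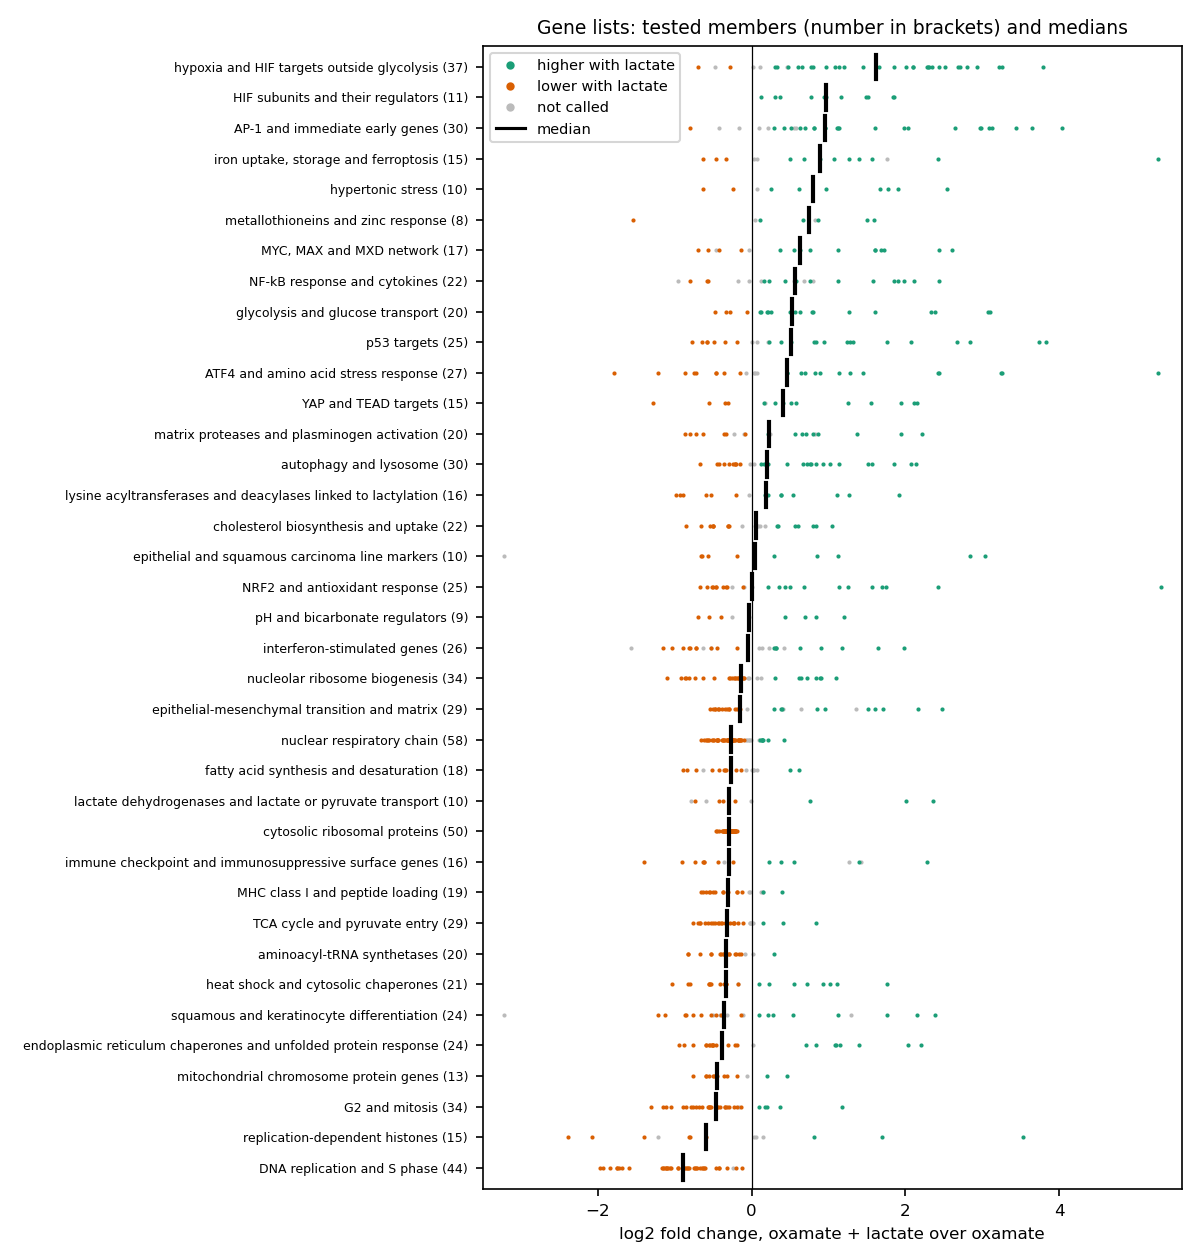
Log2 fold change of oxamate with lactate over oxamate for the tested members of the gene lists with at least 5 tested members (points, coloured by call) and the median of each list (black bars), ordered by median, with 1 member beyond the plotted range. Hypoxia targets stand at the top with a median of 1.62 and DNA replication at the bottom with -0.89. The median of all tested genes is -0.02.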

How the data were processed

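Poly(A)-selected RNA of KYSE150 cells was sequenced in 8 libraries, 2 each from normoxia, hypoxia, hypoxia with oxamate and hypoxia with oxamate and lactate. The authors deposited 1 table of whole-number counts per gene for 61517 genes. The submitters' processing notes name FastQC 0.11.9, STAR 2.7.8a, RSEM 1.3.3 and hg38 (GRCh38) without their roles, so the counts may be rounded RSEM estimates, and strand setting and annotation are not stated. Total counts were 21845676 to 29406061, and 3 counts, the limit that a count of 0 allows, are 0.102 to 0.137 CPM of the total. This limit covers counting error only.

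Groups came from the treatment labels. All 8 libraries were fitted with 4 group means in edgeR 4.0.16 (R 4.3.3, limma 3.58.1) with TMM scaling, filterByExpr at a minimum count of 10, a robust quasi-likelihood fit with 4 residual degrees of freedom and Benjamini-Hochberg adjustment over 15554 genes. CPM are counts scaled to a common library size. Adjusted p-values in the text come from this edgeR test, and a call is one under 0.05. The standard error is the size of the log2 fold change divided by the square root of F. The biological coefficient of variation was 3.06%. The script was tested on simulated data.

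Genes were grouped into 39 lists of 931 genes, of which 928 were in the table and 827 tested. The members and lists were chosen with earlier results of these data known. The naming rule took 12 genes of lactate, HIF and PD-L1 biology whatever they did. It added the 8 largest increases, the 8 largest decreases and the 5 smallest p-values in each direction among 8745 called genes, which averaged at least 1 in log2 CPM, separated the libraries of both groups fully and carried no clone-based symbol. It then took the 2 members with the smallest p of up to 10 lists with most members called in 1 direction. Gene positions are from GENCODE 29, which held 98.0% of tested genes. Of 52 named genes, 35 share exon bases with another gene and 12 with one at 10% or more of their level.

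Alternatives were RLE and upper quartile scaling, no filter, DESeq2 1.42.0, a filter that asks for 50 counts in 2 libraries, a fit of the 4 libraries alone, the replicate number as a block, leaving out each of the 4 libraries, and edgeR's glmTreat at a fold change of 1.5. The liver gene list and the reading of each list gene without lactate replicate 1 were added after seeing the data. Some genes are not reported here.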

Additional observations from a re-analysis of the deposited data

How the results depend on the processing

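Of called genes, 51.2% were higher in the edgeR result of the report, 39.6% with upper quartile normalization, 43.3% with the filter of 50 counts in 2 libraries and 71.0% in the test against a fold change of 1.5. The median of all genes was -0.02 in the report, -0.21 with upper quartile normalization, -0.07 with RLE size factors and with DESeq2, and -0.13 with the stricter filter. Upper quartile normalization gave 1296 genes lower by at least 2-fold against 699. The test against a fold change of 1.5 left 2710 genes higher and 1108 lower, by its own construction. The cause of the other shifts was not tested. Leaving out 1 of the 4 libraries gave 4282 to 5051 genes higher and 4614 to 5259 lower, 1983 to 2277 higher and 681 to 918 lower by at least 2-fold, a share of higher calls of 45.1% to 51.8% and a median of -0.10 to -0.01. Counts over all genes otherwise stayed within 1.5 times. Of the list counts, 87 moved further over all alternatives and 801 did not. The test against a fold change of 1.5 gave 54 of those 87. List medians were less stable: 207 moved by more than their spread over pairs of libraries and 237 did not. The 237 include 37 of the test against a fold change of 1.5, which keeps the fold changes of the report and so cannot move a median. With upper quartile normalization 36 medians moved and 1 did not, and that of glycolysis went from 0.53 to 0.34. The checkpoint median of -0.30 became -0.49 with upper quartile normalization and 0.39 with no filter. Outside the test against a fold change of 1.5, alternatives called 88.1% to 98.5% of the same genes in the same direction. No named gene changed direction, and CD274 lost its call under 4 alternatives, besides the test against a fold change of 1.5. That test also ended the calls of LDHB, AARS1, RPLP0, RPL27, ATP5F1A, NDUFA9 and MT-CO3. Most named genes were chosen by large changes or small p in these data, so their constant direction says little about other genes. Where leaving out a library left 1 in its group, the remaining one was assumed to vary like the other groups.

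The replicate numbers were not treated as a pairing, because the deviations of same-numbered libraries from their group means correlated at 0.01 between oxamate and lactate and at -0.05 to 0.01 over all pairs of groups. With the replicate number as a block, 5111 genes were higher and 4870 lower. Depth limits low transcripts: in the lowest level group, up to 5.12 CPM, 16.5% of genes were higher and 13.5% lower. In the highest level group, from 38.2 CPM, 40.8% were higher and 47.2% lower. Of the genes called higher, 143 had at most 3 counts over both oxamate libraries, so their folds are not bounds.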

Other observations

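Zinc finger genes with a symbol of ZNF and a number, a class chosen after values were seen, were mostly higher with lactate. Of 397 tested, 238 (59.9%) rose and 50 (12.6%) fell, against 33.2% and 31.7% of all tested genes. The median log2 fold change of the class was 0.65, and 137 rose and 10 fell by at least 2-fold. Their median from hypoxia alone to oxamate was -0.80, a comparison that shares the oxamate libraries. Of 91 tested sense intronic transcripts, 31.9% rose and 7.69% fell, whereas 37.0% of 12368 protein-coding genes rose and 36.2% fell. Of 1006 antisense genes, 13.3% rose and 15.5% fell, and their overlap with the opposite gene limits what the counts show.

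Genes of squamous identity and cell adhesion split. Of 24 tested squamous and keratinocyte genes, 8 rose (33.3%) and 10 fell (41.7%). Over all tested genes, 33.2% rose and 31.7% fell. The desmosomal cadherins DSC2 (2.15 ± 0.055) and DSG3 (1.77 ± 0.049) and the squamous lineage factor TP63 (1.12 ± 0.038) rose, while the basal keratin KRT5 fell (-0.66 ± 0.025), from 3489 to 2201 CPM. Of 29 genes of epithelial-mesenchymal transition and matrix, 10 rose (34.5%) and 14 fell (48.3%), with a median of -0.15. The transcription factor SNAI2 (2.17 ± 0.05) and the collagen receptor subunit ITGA2 (1.71 ± 0.069) were higher. The collagen gene COL7A1 (-0.54) had the largest decrease of the list. YAP and TEAD targets rose in 10 of 15 tested cases (66.7%) and fell in 4 (26.7%). AMOTL2 (2.11 ± 0.038) and LATS2 (2.15 ± 0.079), negative regulators of the pathway, were both higher. Of 21 tested heat shock and chaperone genes, 8 rose (38.1%) and 12 fell (57.1%), with HSP90AA1 (-1.03 ± 0.031) lower and DNAJB1 (1.11 ± 0.034) higher. Nucleolar genes of ribosome biogenesis fell in 21 of 34 cases (61.8%) and rose in 8 (23.5%).

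Of 26 tested interferon-stimulated genes, 8 rose (30.8%) and 10 fell (38.5%), or 5 and 12 with upper quartile normalization. Of all tested genes, 33.2% rose and 31.7% fell. Of 25 NRF2 and antioxidant genes 12 rose (48%) and 10 fell (40%), and of 22 cholesterol genes 7 rose (31.8%) and 9 fell (40.9%). Of 18 genes of fatty acid synthesis, 2 rose (11.1%) and 10 fell (55.6%), with a median of -0.27, and with upper quartile normalization 15 fell. Of 20 matrix proteases and plasminogen genes 9 rose (45%) and 7 fell (35%). Of 9 pH and bicarbonate regulators, 4 rose (44.4%) and 3 fell (33.3%), and of 15 replication-dependent histone genes 3 rose (20%) and 6 fell (40%). Of 10 tested epithelial markers, 5 rose and 4 fell, with 2 of 4 tested leukocyte markers higher and 0 of 4 tested fibroblast and endothelial markers called. The epithelial marker KRT19 had 1 and 4 counts in the oxamate libraries and 30 and 6 in the lactate libraries, most of them in lactate replicate 1.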
